A study of Homo sapiens with 6 samples.

Results

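The AP-1 transcription factor genes FOS, FOSB, FOSL1, FOSL2, JUN, JUNB, JUND, ATF2 and ATF3 were followed on every probe set that the platform annotation assigns to 1 of these symbols alone. This gave 23 of 54675 probe sets on the array, at least 1 for each of the 9 genes. The samples were MDA-MB-231 cells, a mesenchymal-like human triple-negative breast cancer cell line, grown in serum-containing medium. For 48 h they received either phosphate-buffered saline (PBS) or 50 µM TCI04, for which the labels give a code name and no structure, and each group has 3 arrays. The family was selected on this very comparison, in which FOS was the single probe set called. The TCI04 shifts below are therefore descriptions of size and spread, and the adjusted p-values of FOS are those behind its selection.

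AP-1 proteins are basic leucine zipper factors that bind DNA as dimers. JUN proteins can pair with themselves or with FOS proteins, whereas FOS proteins need a JUN-type partner, and ATF2 and ATF3 join JUN at sites that resemble the cyclic AMP response element. FOS, FOSB, JUN and JUNB are classical immediate-early genes, switched on within minutes by growth factors, serum and stress through ERK, JNK and p38 kinases. FOSL1 (the protein FRA-1) is known as an abundant AP-1 subunit in triple-negative breast cancer cells, where it is tied to invasion.

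Each value is a MAS5 signal, which condenses the probes of a probe set into 1 number on a linear scale, and all arrays were scaled by the authors to a common trimmed mean of 500.1. Differences are on the scale log2(signal + 10.96), TCI04 minus PBS, and a probe set was tested where its mean signal over the arrays reached 33.9. The labels do not say whether arrays came from separate cultures, so the spread may be technical. All 7 markers expected in this line, VIM and CD44 among them, were above that level. CDH1 and PGR, expected to be missing, were below it, while ESR1, ERBB2, EPCAM, KRT19 and GATA3 were above it. Of 11 fibroblast, leukocyte and endothelial markers on the array, 4 were above it. Their summed signals overlapped between the groups, except for the endothelial markers, at 227 to 251 with PBS and 172 to 223 with TCI04. One array stood apart in RNA quality: for ACTB, TCI04 replicate 3 had 3.33 times more signal at the 3' end than at the 5' end, against 1.64 to 1.72 times in the other 5 arrays.

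FOS, which encodes the founding FOS subunit, was lower with TCI04. Its only probe set (209189_at) read 1086, 1186 and 1183 in PBS replicates 1 to 3. With TCI04 it read 471, 506 and 560. The groups were far apart relative to their spread, with means of 1151 ± 56.8 against 512 ± 44.8 (SD, n = 3 in each), a ratio of 2.25. The log2 difference was -1.15 with a standard error of 0.10, and its 95% interval corresponds to a fold of 1.92 to 2.58. FOS was the 1 member called in limma at an adjusted p under 0.05, which is also the whole of the background of 0.00305% of 32746 tested probe sets. Among the 8186 tested probe sets of similar level (mean signal 251 to 1031), 3 were lower by 1 log2 unit or more, FOS included. The call rests on few arrays. Limma's adjusted p was 0.00611, and it became 0.0602, 0.117 and 0.125 without PBS replicate 1, 2 and 3. Without TCI04 replicate 1 and 2 it was 0.052 and 0.0518. Without TCI04 replicate 3, the array with the high ACTB ratio, the log2 difference was -1.22 and limma's adjusted p was 0.00279. With arrays centred on their medians over all probe sets it was 0.0544. It was also lost without a variance trend (adjusted p = 0.462) and in an ordinary test on each probe set's own variance (0.491). In a bulk sample, fewer cells expressing FOS and less FOS RNA per cell cannot be told apart.

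FOSB encodes a close relative of FOS that is induced by many of the same stimuli. Its single probe set (202768_at) read 84.3, 111 and 62.9 with PBS. With TCI04 it read 6.58, 29.1 and 18.2, each below every PBS array and below the level of 33.9. FOSB therefore entered the test only through its PBS arrays. The log2 difference was -1.80 with a standard error of 0.39, the lowest of 13679 genes at this offset, each gene being taken at its brightest probe set. At so low a signal the size depends on the offset, with -2.37 at an offset of 1 and -0.87 at the table median of 63.6. FOSB was not called.

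The 250 bases upstream of the RefSeq start are shown for FOS and FOSB, the pair with the lowest values, and for JUN, whose brightest probe set differed little between the groups. Of the 9 genes, 7 matched the RefSeq promoter table (build GRCh38.p14). Capitals mark matches, on either strand, to 7 motifs. TGACGTCA is the full cyclic AMP response element and TGACGT its core. TGAGTCA is the classical AP-1 element, and TGACATCA is the variant known from the JUN promoter. The TATA box was searched as TATAAA and the NF-Y site as CCAAT, and the CArG box, bound by SRF, by its consensus.
FOS: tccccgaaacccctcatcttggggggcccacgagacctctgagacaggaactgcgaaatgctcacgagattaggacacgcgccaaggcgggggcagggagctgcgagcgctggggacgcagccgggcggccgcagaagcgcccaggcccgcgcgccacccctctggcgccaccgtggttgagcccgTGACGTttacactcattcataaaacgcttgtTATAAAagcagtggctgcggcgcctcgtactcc
FOSB: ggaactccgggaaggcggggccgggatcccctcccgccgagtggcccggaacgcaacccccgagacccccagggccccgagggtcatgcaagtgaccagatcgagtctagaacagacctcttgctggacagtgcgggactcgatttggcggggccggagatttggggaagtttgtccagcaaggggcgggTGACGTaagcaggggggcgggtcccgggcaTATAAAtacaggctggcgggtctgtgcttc
JUN: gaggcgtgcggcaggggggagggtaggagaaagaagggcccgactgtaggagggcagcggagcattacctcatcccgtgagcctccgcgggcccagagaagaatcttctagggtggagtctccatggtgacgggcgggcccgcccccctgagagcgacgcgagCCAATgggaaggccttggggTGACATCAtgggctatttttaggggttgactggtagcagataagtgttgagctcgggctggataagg
These stretches are chr14:75278578-75278827 on the plus strand, chr19:45467746-45467995 on the plus strand and chr1:58784048-58784297 on the minus strand. Counted back from the start, TGACGT lay at -64 to -59 in FOS and at -60 to -55 in FOSB, each followed by TATAAA at -33 to -28 and -30 to -25. FOSL2 also had TGACGT, at -66 to -61. JUN instead held TGACATCA at -67 to -60, a sequence that one ATF3 start also had at -123 to -116. JUND held TGACGTCA at -200 to -193, a palindrome that contains the core on both strands, and a further core at -87 to -82. JUNB matched TATAAA and CCAAT. No CArG box or TGAGTCA lay in these windows of the 7 genes, which says only that the letters are not in this stretch. Over all 35116 promoters of the table, 7.1% held TGACGT, 10.7% TATAAA, 0.681% both, 2.37% TGACATCA, 1.65% TGACGTCA, 4.2% TGAGTCA, 32.0% CCAAT and 1.16% the CArG box.

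FOSL1 lay on the other side. Its probe set (204420_at) read 2955, 2930 and 2991 with PBS. With TCI04 it read 3323, 3162 and 3348. All TCI04 arrays exceeded all PBS arrays, by a small margin: the log2 difference was 0.15 with a 95% interval of 0.01 to 0.28. FOSL1 kept this sign in all 19 alternatives, at 0.12 to 0.31, and was called in 0 of them.

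FOSL2, which encodes FRA-2, was covered by 5 probe sets that shared a sign but not a size. The brightest (225262_at) read 2630, 2627 and 2652 with PBS and 2431, 2571 and 2495 with TCI04, a log2 difference of -0.08. This sign turned to 0.082 when arrays were centred on their medians over all probe sets. The probe set 228188_at gave 1349, 1471 and 1535 against 1240, 1292 and 1325, a difference of -0.17. The dimmest (205409_at) read 102, 103 and 81.2 with PBS and 47.2, 56.9 and 24.5 with TCI04, a difference of -1.03 with a standard error of 0.31. Without TCI04 replicate 3, the array with the high ACTB ratio, the difference was -0.75. The remaining probe sets, 218880_at and 218881_s_at, gave -0.29 and -0.29, and the latter overlapped between groups. That of 218881_s_at moved to -0.52 without PBS replicate 1, to -0.13 without PBS replicate 2, to -0.49 without TCI04 replicate 2 and to -0.04 without TCI04 replicate 3. The groups were apart in 4 of 5 FOSL2 probe sets, all toward lower values, where the background was 8.19% of tested probe sets. Yet the intervals of the brightest (-0.21 to 0.06) and the dimmest (-1.70 to -0.35) had no value in common. These probe sets share their arrays and their gene and are no replicates of each other.

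**Figure D1:**
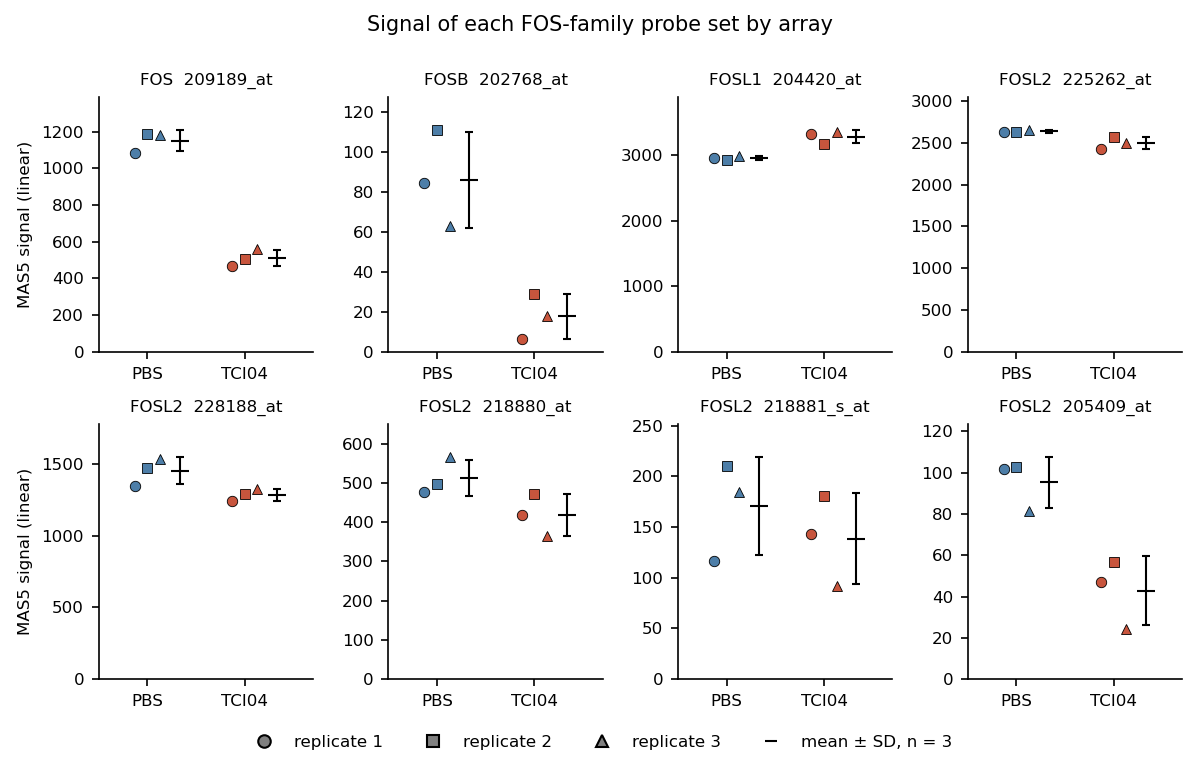
MAS5 signal (linear, from 0) of each of the 8 FOS-family probe sets in the 3 PBS and 3 TCI04 arrays, with symbols for the replicate number and the mean ± SD beside them. FOS and FOSB are separated widely by group, FOSL1 lies slightly higher with TCI04, and the FOSL2 probe sets range from a difference of -0.08 to -1.03 in log2.

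JUN encodes the central AP-1 subunit, and its 4 probe sets gave no common direction. The brightest (201464_x_at) read 5695, 5392 and 5242 with PBS. With TCI04 it read 5620, 5645 and 5160. The groups overlapped, with a log2 difference of 0.01 and a 95% interval of -0.13 to 0.15. This sign turned to -0.0049 after quantile normalization. In 201466_s_at all TCI04 arrays were above all PBS arrays, at 2158, 2151 and 2076 against 1958, 1840 and 1792, a difference of 0.19 with an interval of 0.04 to 0.34. The probe set 213281_at overlapped between groups and gave -0.02, with the opposite sign under either median centring and under array weights. The last, 201465_s_at, read 605, 762 and 629 with PBS and 655, 876 and 345 with TCI04, the low value being replicate 3. Its difference was -0.18 over all arrays and 0.19 without TCI04 replicate 3; the part of that array's 3' to 5' ratio in this was not tested.

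JUNB, which encodes a JUN relative that can restrain JUN, was measured by 201473_at at 184, 153 and 277 with PBS and 209, 235 and 159 with TCI04. The groups overlapped fully, with a log2 difference of -0.0014 and an interval of -0.50 to 0.50, so a change of 1.4-fold either way lies within it. Its sign turned under quantile normalization, under array weights and under both median centrings.

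JUND, the JUN relative that is typically expressed steadily, was read by its brightest probe set (203752_s_at) at 2192, 2380 and 2132 with PBS and 2366, 2137 and 2407 with TCI04. The groups overlapped, at a difference of 0.04 with an interval of -0.12 to 0.21. Its other probe sets were dim. Those tested gave -0.22 for 203751_x_at and -0.87 for 229117_s_at. The latter rested on TCI04 arrays at 8.30, 22.9 and 57.7, the last inside the PBS range of 48.5 to 58.8, and moved to -1.34 without TCI04 replicate 3 and to -0.43 without TCI04 replicate 1. The probe set 214326_x_at was not tested, with signals of 22.9 to 55.5 with PBS and 5.07 to 44.2 with TCI04. Names ending in _x_at or _s_at mark probe sets whose probes can match more than 1 transcript.

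ATF2, a stress-kinase target that dimerizes with JUN, had the highest positive difference of the family. Its probe set 212984_at read 2617, 2010 and 2198 with PBS. With TCI04 it read 3101, 2825 and 3187, all above the PBS arrays, and the difference was 0.42 with an interval of 0.21 to 0.64. The second probe set (205446_s_at) read 512, 540 and 604 with PBS and 498, 490 and 513 with TCI04, a difference of -0.14 with an interval of -0.36 to 0.09. These intervals do not meet, so the probe sets of ATF2 disagreed, and neither was called. The sign of the second turned to 0.024 with median centring over all probe sets. Its last probe set (1555146_at), at 7.21 to 31.4 over the arrays, was too dim to test.

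ATF3, a stress-induced factor that can repress as a homodimer, also differed between probe sets. The brightest (202672_s_at) read 226, 267 and 263 with PBS and 241, 276 and 295 with TCI04, an overlap with a difference of 0.10. By contrast, 1554980_a_at read 130, 149 and 206 with PBS and 94.9, 93.2 and 132 with TCI04. TCI04 replicate 3 exceeded PBS replicate 1 by a small margin, so these groups overlapped too, at a difference of -0.54 with an interval of -1.04 to -0.04. The dimmest, 1554420_at, varied more within a group (17.2 to 82.3 with PBS, 12.4 to 53.2 with TCI04) than between them. Its difference was -0.55, with -1.12 without PBS replicate 2 and -0.13 without TCI04 replicate 2.

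**Figure D2:**
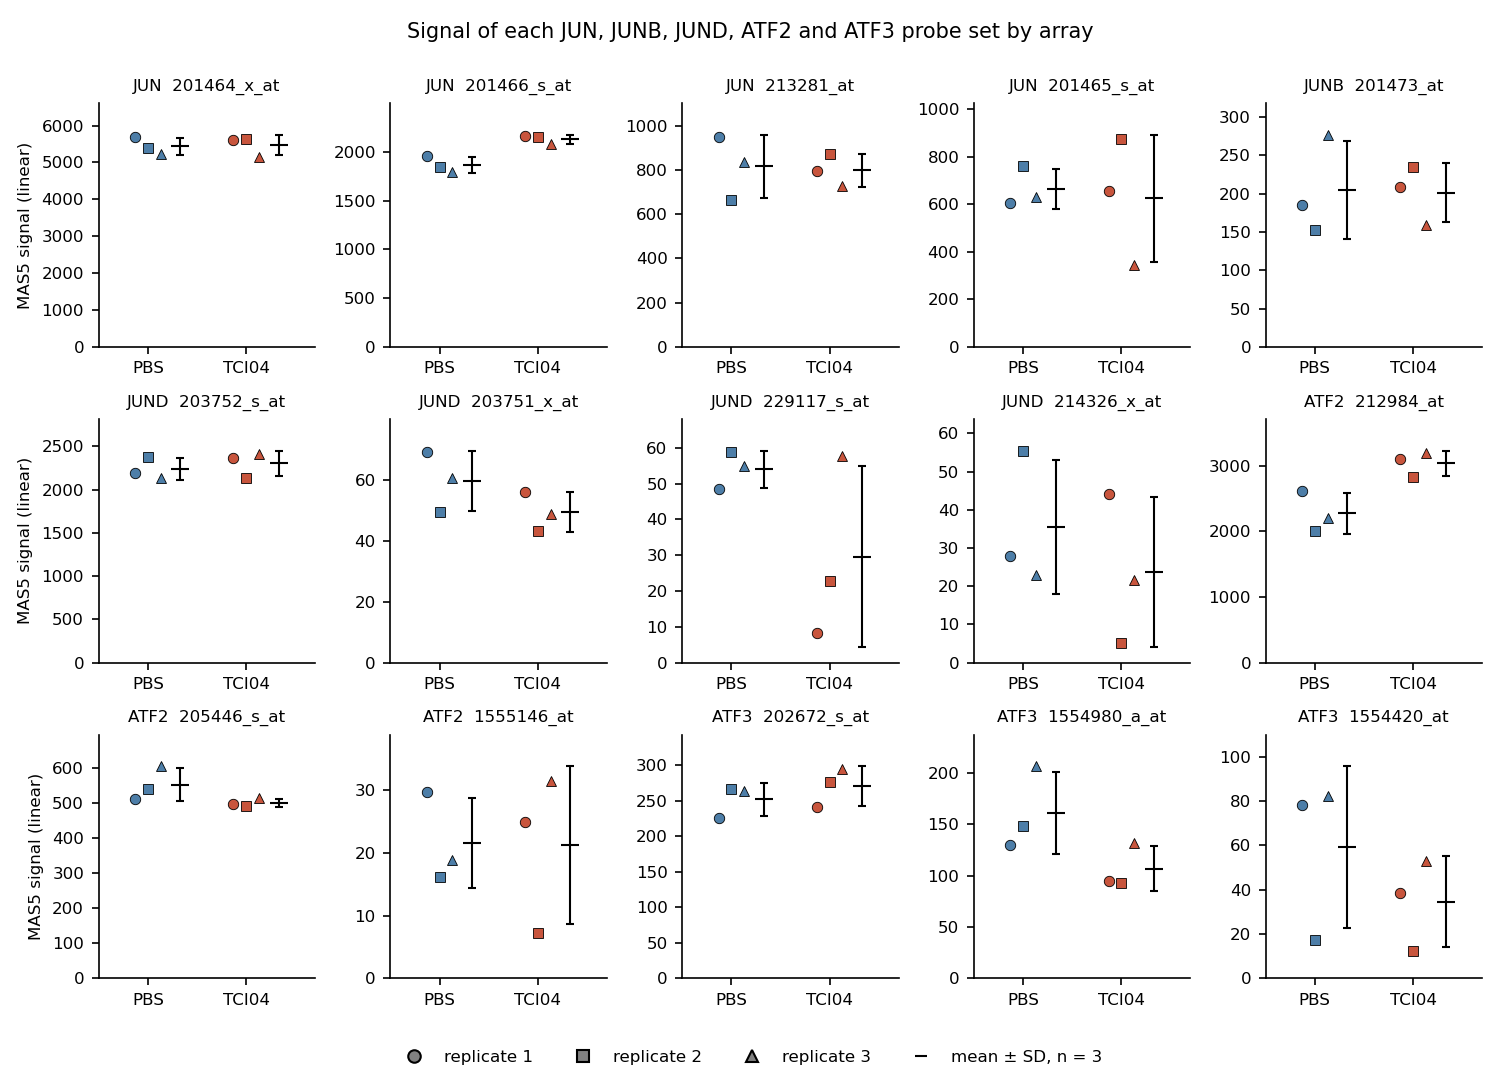
MAS5 signal (linear, from 0) of each JUN, JUNB, JUND, ATF2 and ATF3 probe set in the 3 PBS and 3 TCI04 arrays, with the mean ± SD beside the points. The groups are apart in JUN 201466_s_at and ATF2 212984_at and overlap in all other panels.

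Across the family, 21 of 23 probe sets were tested. Of these, 15 had a lower and 6 a higher mean with TCI04, and the median log2 difference was -0.17. Without TCI04 replicate 3 this median was -0.076. Over all tested probe sets 56.2% had a lower mean and the median was -0.03. The groups did not overlap in 6 probe sets toward lower values, where the background was 8.19%, and in 3 toward higher values, where it was 5.35%. Either way the groups were apart in 9 of 21, where the background was 13.5%. A difference of -1 or lower was seen in FOS, FOSB and FOSL2 205409_at, where the background was 0.733%. Nothing is read from these counts, since the comparison also chose the family. All 6 on the lower side belonged to FOS, FOSB and FOSL2, while the 3 on the higher side belonged to FOSL1, JUN and ATF2. Taking each gene at its brightest probe set, 4 of 9 had a lower mean, where the background was 50.7%, and the median was 0.01. FOS and FOSB were the 2 genes at -1 or lower, where the background was 0.541%. FOSB entered the test only through its PBS arrays, and nothing is read from these gene counts either.

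The level of a probe set moved with its difference. In the dimmest of 4 equal classes of tested probe sets, with mean signals of 33.9 to 79.4, the median difference was -0.16 over all 8187 and 67.0% were lower with TCI04. All 5 AP-1 probe sets in that class were lower: FOSB, FOSL2 205409_at, JUND 203751_x_at, JUND 229117_s_at and ATF3 1554420_at. FOSB had 3 PBS arrays and 0 TCI04 arrays above the level of 33.9, and JUND 229117_s_at had 3 and 1. Such probe sets reached the test through their PBS arrays, so nothing is read from this count. In the second class 3 of 3 AP-1 probe sets were lower, where the share over all was 63.2%. In the third class it was 5 of 6, where the share was 53.4%. In the brightest class the median was 0.02 over all and 0.04 over the 7 AP-1 probe sets. Of these, 2, both of FOSL2, were lower, where the share over all was 41.2%. The median signal of the arrays was 64.0 to 74.3 with PBS and 58.9 to 59.8 with TCI04. The part of this shift in the low values of the dim AP-1 probe sets was not tested. FOS lay in the class with mean signals of 251 to 1031. Its difference was -1.14 after quantile normalization and -0.995 with median centring over all probe sets, where it was not called. The part of the shift in the FOS value was not tested either.

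**Figure D3:**
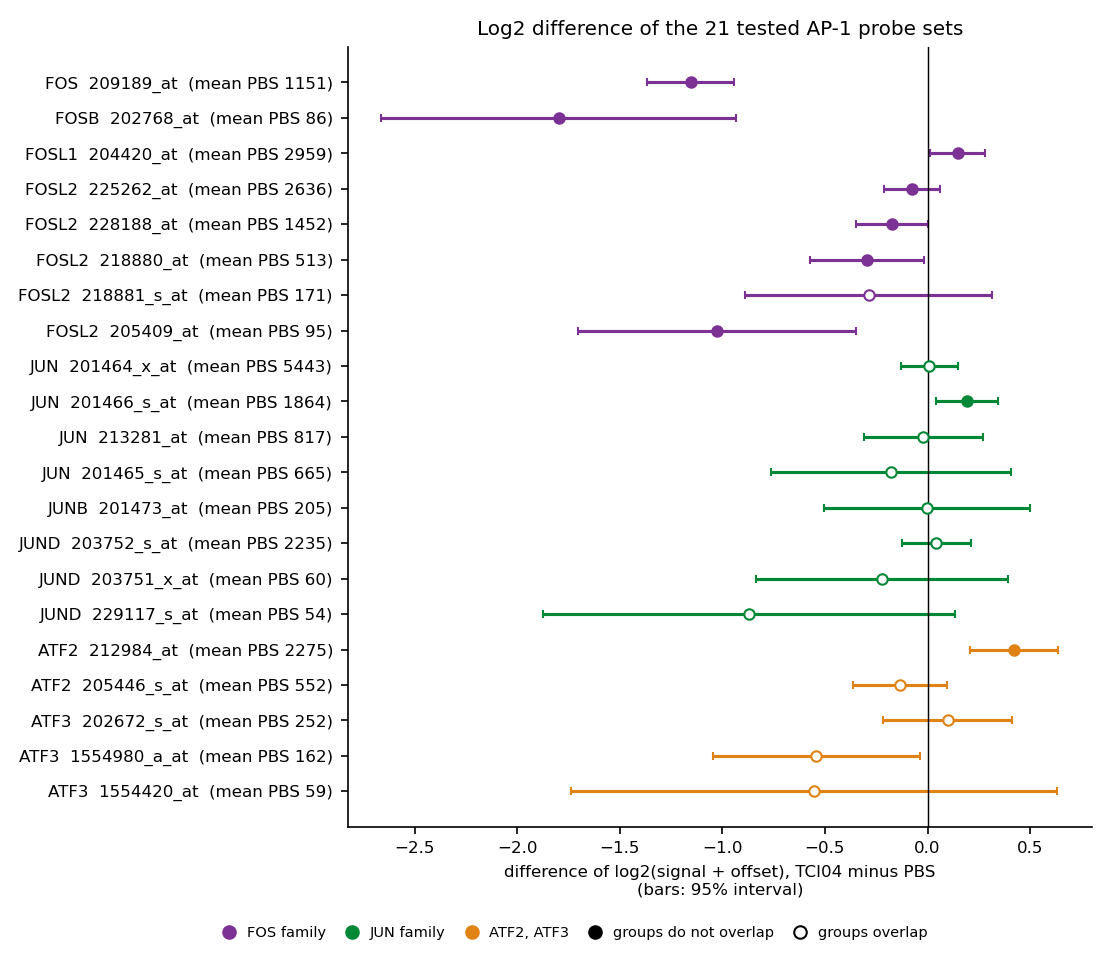
Log2 difference (TCI04 minus PBS) with its 95% interval for the 21 tested probe sets, coloured by family branch and labelled with the mean PBS signal; filled points mark groups that do not overlap. FOS (-1.15) has a narrow interval and FOSB (-1.80) a wide one. In the brightest class, the probe sets of FOSL1, FOSL2, JUN and JUND lie between -0.17 and 0.19, and ATF2 212984_at lies at 0.42.

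Likeness to FOS was measured as the root mean square difference between array profiles, in log2 units centred on the PBS mean, over the 6 arrays. Of 26501 tested probe sets with 1 symbol from other genes, the nearest were GTF3C2-AS1 (0.16), SPG11 (0.18), ITGAM (0.21), ZNHIT2 (0.21) and the long non-coding L3MBTL4-AS1 (0.21). Their log2 differences were -1.12 for GTF3C2-AS1, -0.92 for SPG11, -0.90 for ITGAM, -1.27 for ZNHIT2 and -0.94 for L3MBTL4-AS1. The measure includes the difference between groups, so values near that of FOS follow from how these probe sets were picked. All 5 were dim, with signals of 49.5 to 110 in the PBS arrays. With TCI04, GTF3C2-AS1 read 28.0, 19.3 and 22.5, ZNHIT2 28.0, 21.2 and 26.3, and L3MBTL4-AS1 15.8, 25.4 and 29.7. All these TCI04 values lay below the mean signal required for testing. GTF3C2-AS1, ZNHIT2 and L3MBTL4-AS1 therefore entered the test only through their PBS arrays, and nothing is read from their likeness to FOS. The other tested probe sets of SPG11 (-0.37 to 0.13) and ZNHIT2 (-0.07) did not repeat the pattern. Within the family the closest was FOSL2 205409_at, at 0.37 and rank 117. FOSB was at 0.59 and rank 1661, and its TCI04 values lay further down and scattered more. The farthest within the family were ATF2 212984_at at 1.13, JUN 201466_s_at at 0.96 and FOSL1 at 0.92. Their ranks were 25515, 23007 and 21517.

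**Figure D4:**
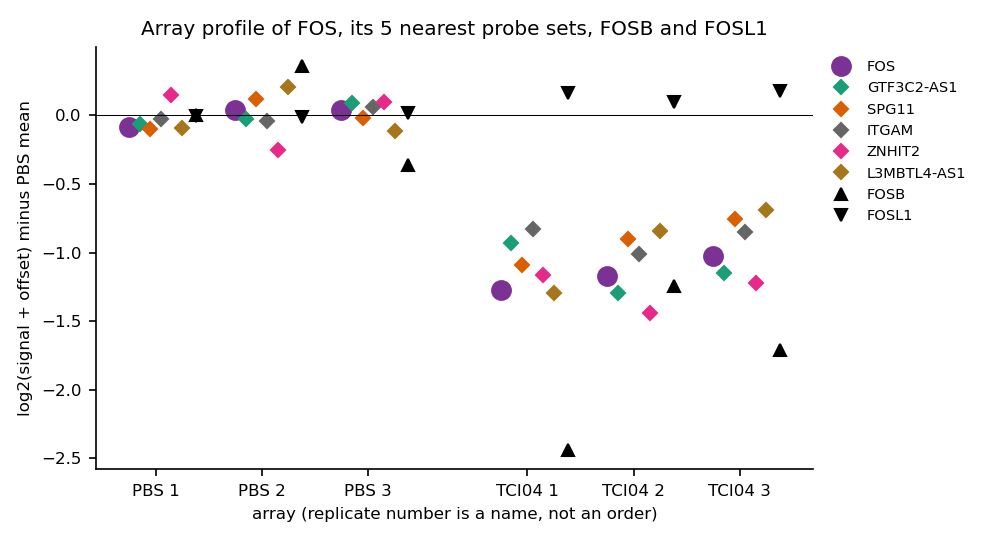
Array profiles as log2(signal + 10.96) minus the PBS mean for FOS, its 5 nearest probe sets, FOSB and FOSL1, with 1 point per array. FOS lies between -1.27 and -1.03 in the TCI04 arrays, FOSB lower and more scattered, and FOSL1 above 0.

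Genes around AP-1 were counted in 5 further lists, each gene at its brightest probe set. None of the tested genes of these lists passed in limma, against 0.00731% of 13679 genes toward lower and 0% toward higher values, and the ordinary test called 0 as well. Among other basic leucine zipper partners, such as the ATF, BATF, CREB and MAF genes, 12 of 22 had a lower mean and the median difference was -0.01. Centring arrays on their medians over all probe sets moved the median of all tested probe sets by 0.16, turned the sign of this list to 0.15 and left the kinase, promoter factor and cofactor lists on the higher side. At an unadjusted p under 0.05, limma had 4.11% of all genes lower and 2.89% higher, and the ordinary test 2.98% and 3.44%. Of the 22 partners there were 0 lower and 3 higher in limma, and 0 and 2 in the ordinary test. XBP1, which drives the secretory stress response, measured 1992 ± 62.6 with PBS and 2303 ± 119 with TCI04 (SD, n = 3), a log2 difference of 0.21. CEBPG had a difference of 0.20 and BATF3, a JUN partner, one of -0.20.

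Means were higher for 17 of 24 kinases upstream of FOS and JUN, and their median was 0.05 (1 lower and 1 higher at an unadjusted p under 0.05 in limma, where all genes had 4.11% and 2.89%, and 0 and 1 in the ordinary test). MAP3K5, which feeds JNK and p38, measured 648 ± 30.0 with PBS and 810 ± 64.7 with TCI04 (SD, n = 3), a difference of 0.32, with 0.07 from its other probe set. The ERK-activated kinases RPS6KA2 and RPS6KA3 gave 0.35 and 0.15, and the other probe set of RPS6KA2 gave -0.26. The other RPS6KA genes of the list went the other way, with -0.19 for RPS6KA1, -0.53 for RPS6KA4 and -0.13 for RPS6KA5. Of 17 factors that bind the FOS and JUN promoters, 8 were lower and 9 higher, with a median of 0.06 (1 lower and 1 higher in limma, 1 and 2 in the ordinary test). ELK1, an ERK substrate that acts with SRF at the FOS promoter, read 708, 743 and 727 with PBS and 594, 568 and 622 with TCI04. The difference of ELK1 was -0.28 with an interval of -0.48 to -0.08, and its other probe set gave -0.17. In this list the groups did not overlap in 1 gene, ELK1, toward lower values, where the background was 6.89%. Toward higher values they did not overlap in 4, where the background was 6.65%. NFYA and MED23 gave 0.18 and 0.25, with -0.86 to 0.07 and -0.37 to 0.10 from their other probe sets.

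Of 18 cofactors and regulators of FOS and JUN protein, 7 were lower, with a median of 0.03 and 0 at an unadjusted p under 0.05 in either test. TRIB1, a pseudokinase adaptor for protein degradation, gave 0.18. Of 32 tested AP-1 target genes, 20 were lower and 12 higher, with a median of -0.07, which was -0.01 after quantile normalization and 0.09 with median centring over all probe sets. At an unadjusted p under 0.05 there were 0 lower and 1 higher in both tests, where all genes had 4.11% and 2.89% in limma and 2.98% and 3.44% in the ordinary test. In this list the groups did not overlap in 0 genes toward lower values, where the background was 6.89%, and in 3 toward higher values, where it was 6.65%. The 3 were VEGFA, the angiogenic growth factor, at 0.24, PTN at 0.18 and EGFR at 0.10. Other probe sets gave -0.45 to 0.06 for VEGFA and -0.97 to 0.01 for EGFR. For 30 of the 32 target genes the whole 95% interval lay within 2-fold of no difference, as it did for 86.2% of all genes.

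**Figure D5:**
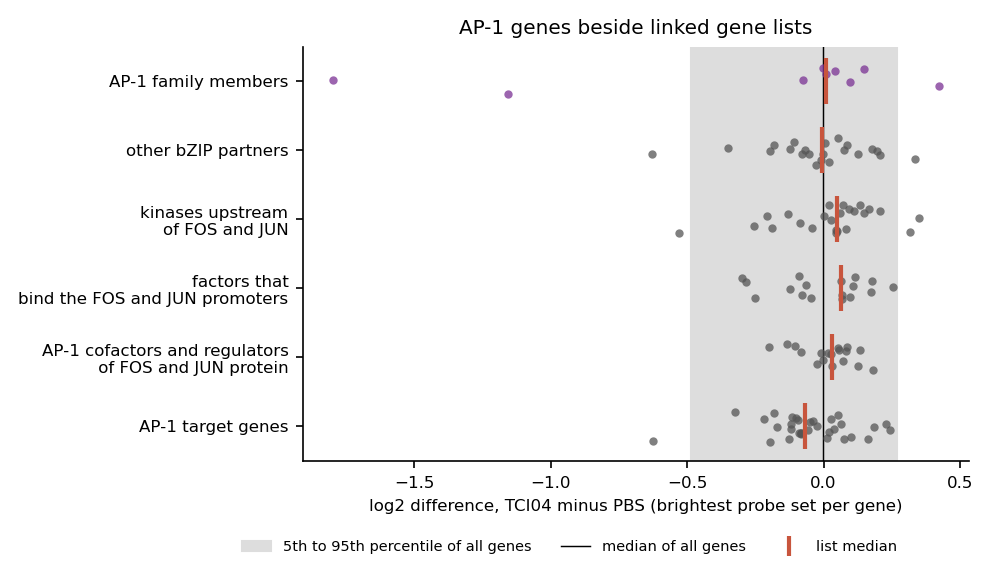
Log2 difference (TCI04 minus PBS) of each gene at its brightest probe set, for the AP-1 family and 5 linked lists, with list medians and the 5th to 95th percentile of all genes (-0.49 to 0.27) shaded. FOS and FOSB lie far below this range and ATF2, by its brightest probe set alone, above it. Genes of the linked lists also lie outside it. NRL (-0.63), TGFB1 (-0.62) and RPS6KA4 (-0.53) lie below it, and RPS6KA2 (0.35), JDP2 (0.33) and MAP3K5 (0.32) above it. The medians of the linked lists lie between -0.07 and 0.06.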

How the data were processed

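RNA of 6 MDA-MB-231 samples was hybridized to Affymetrix arrays. What the authors deposited is a linear intensity for every probe set on each array, made with MAS5 per the submitters' processing notes. Its version, detection calls and a genome build are not given in the sources used here. Gene names come from the platform annotation (41097 probe sets with 1 symbol, 1801 with several, 11777 with none).

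Before log2 was taken, 10.96 (the 20th percentile of the whole table) was added to each signal. The 62 control probe sets and those with a mean below the 40th percentile (33.9) were left out, which left 32746. A two-sided limma fit (3.58.1, run in R 4.3.3; lmFit and trended eBayes) covered this table, with Benjamini-Hochberg adjustment and a threshold of 0.05. The steps were run on simulated data with independent noise in each value. Those data held no shift shared by the probe sets of an array, so the run does not cover such shifts. The labels do not say whether equal replicate numbers pair the arrays, and the main fit used no pairing. The precision is limited by 3 arrays per group.

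All member probe sets are named; from each linked list, called genes or otherwise up to 3 non-overlapping genes with the smallest p; and the 5 probe sets most like FOS. Members and lists were chosen with earlier results of these data known. Alternatives covered scaling, offset, filter, variance model, array weights, replicate block and single arrays left out.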

Additional observations from a re-analysis of the deposited data

How the results depend on the processing

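Centring on the median of the tested probe sets, and the alternatives for the linked lists, were added after the data were seen. In the 19 alternatives FOS stayed lower, at -1.22 to -0.995, and kept its call in 11 (limma, adjusted p from 0.00128 to 0.491). The count of lower calls, among AP-1 probe sets and over all, went from 1 to 0 with median centring over all probe sets, without a variance trend and in the ordinary test, and leaving out any 1 array gave 0 to 1; higher calls were 0 throughout. Median centring over all probe sets moved the median of all tested probe sets by 0.16 and that of the AP-1 probe sets from -0.17 to -0.013; the latter was -0.11 after quantile normalization and with centring over tested probe sets, -0.12 with the table median as offset, -0.049 with the 60th percentile as filter, and -0.19 to -0.076 with single arrays left out, the last without TCI04 replicate 3. With the replicate number as a block in limma, FOS was still called (adjusted p = 0.0202) and no other call changed. Same-numbered arrays correlated at 0.0036 to 0.062 in their deviations from the group means. Arrays of different number correlated at -0.061 to 0.0092. These weak values do not settle whether the numbers pair the arrays.

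Of the 21 tested probe sets, 15 had the same sign throughout. Quantile normalization turned JUN 201464_x_at to -0.0049 and JUNB to 0.073. Median centring over all probe sets turned JUNB to 0.16, ATF2 205446_s_at to 0.024, JUN 213281_at to 0.14 and FOSL2 225262_at to 0.082; over tested probe sets it turned JUNB to 0.059 and JUN 213281_at to 0.040. Array weights turned JUNB to 0.059 and JUN 213281_at to 0.044. With single arrays left out, JUN 201464_x_at ranged from -0.019 to 0.050, JUN 201465_s_at from -0.47 to 0.19, JUN 213281_at from -0.16 to 0.093 and JUNB from -0.18 to 0.23. Averaging probe sets turned JUND to -0.35 and ATF3 to -0.33 and moved FOSL2 from -0.077 to -0.37 and ATF2 from 0.42 to 0.14. The cause was not tested. No gene of the 5 linked lists was called in any alternative.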
